A study of Mus musculus with 12 samples.

Results

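Mice whose first weeks passed without microbes were compared with conventionally raised mice, in RNA sequencing of the medial prefrontal cortex (PFC). Of the 12 libraries in all, 8 came from mice without microbes until weaning and 4 from conventional mice, and the former were chosen by their group labels alone. These 8 are 4 libraries of germ-free (GF) mice, which stayed in gnotobiotic isolators, and 4 of exGF mice, which were born GF and left the isolators on postnatal day 21 for the standard animal unit, where they met environmental microbes in cages beside conventional (CON) mice. All were male Swiss Webster mice, first-generation offspring killed at 10 weeks, and all groups ate the same autoclaved diet. Each library held the polyA-enriched RNA of 2 to 3 animals pooled, so any spread among libraries is one among pools, not single mice. The question was which shifts from CON are shared by GF and exGF mice, and so were still present after colonization from weaning.

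GF and CON mice came from separate breeding pairs, and exGF mice came from the GF side. Early life without microbes, descent from another breeding colony and rearing in an isolator until weaning therefore cannot be told apart here. No microbial sequence was analysed, so the microbial status of each group rests on its label. In the deposited table the exGF columns are called GFR1 to GFR4. No other group is left for these columns, so they were taken as exGF, and their numbers were matched to no single sample.

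As background, mammals meet their first microbes at birth, and the weeks until weaning are those in which cortical synapses, myelin and glia mature. Microglia, the resident macrophages of the brain, are known to differ in shape and in their response to bacterial stimuli in germ-free mice. Microbial products such as short-chain fatty acids reach the host through blood, immune cells and the vagus nerve.

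Counts on genes ran from 22757169 to 29134760 in CON, from 13280926 to 23465074 in GF and from 22702599 to 28615407 in exGF libraries. The tissue label was checked against marker genes, in CPM (counts scaled to library size, with TMM factors). The glutamatergic markers Slc17a7, a vesicular glutamate transporter, and Camk2a, a synaptic kinase, were at 1412 ± 53.3 (CON), 1502 ± 134 (GF) and 1526 ± 100.1 (exGF) CPM for the former and at 4136, 4214 and 4260 for the latter. Values after ± are SD of 4 libraries throughout. All 12 glutamatergic markers were tested and 0 were called, with a median log2 fold change of 0.04. Striatal markers varied within groups, with a summed level of 262, 504, 272 and 252 CPM in the CON libraries, 291, 300.1, 301 and 283 in GF and 319, 270.1, 273 and 478 in exGF, so CON2 and GFR4 held more of them than the others, and 0 of 9 were called. Choroid plexus RNA was near absent, at 3.73 to 16.1 CPM summed over its 8 markers, of which 4 were tested and 0 called. Blood markers (4 tested) had 0 called as well. The X-linked Xist had at most 12 counts in any library and the Y-linked Ddx3y at least 483.

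Against CON, the 8 libraries without early microbes had lower RNA of the myeloid genes C1qb, Fcgr2b and Lyz2, of the meningeal markers Col1a2 and Slc6a13 and of the cystine transporter Slc7a11. They had higher RNA of the clock genes Ciart, Nr1d1 and Dbp, of the sodium channel subunit gene Scn4b and of the calcium sensor gene Syt2. Among the larger shifts were those of pseudogenes and noncoding transcripts, some nearly absent on one side, and of the protein-coding genes Vill and Kcnj16. The called genes Il11ra1, Dctn3 and Galt are neighbours on chromosome 4. With the quasi-likelihood test of edgeR and Benjamini-Hochberg adjustment and one coefficient for the 8 libraries, 39 of 16032 tested genes were called at an adjusted p under 0.1 (0.243%), 12 higher (0.0749%) and 27 lower (0.168%). Of these 39, 29 had all 8 libraries above or all 8 below the 4 CON libraries, 10 higher and 19 lower, where 133 of all tested genes did so (0.83%). Since called genes were chosen for that same difference, this count says nothing further about them. Among the 12 higher, 11 changed by log2 0.36 to 1.05, and Gm6612, almost without counts in CON, is given as a ratio below. The 27 lower had log2 fold changes of -4.75 to -0.34 (median -0.85), where all tested genes had a median of 0.01. An unadjusted p under 0.05 was found for 1125 genes, and 52.3% of all tested genes had higher estimates.

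**Figure D1:**
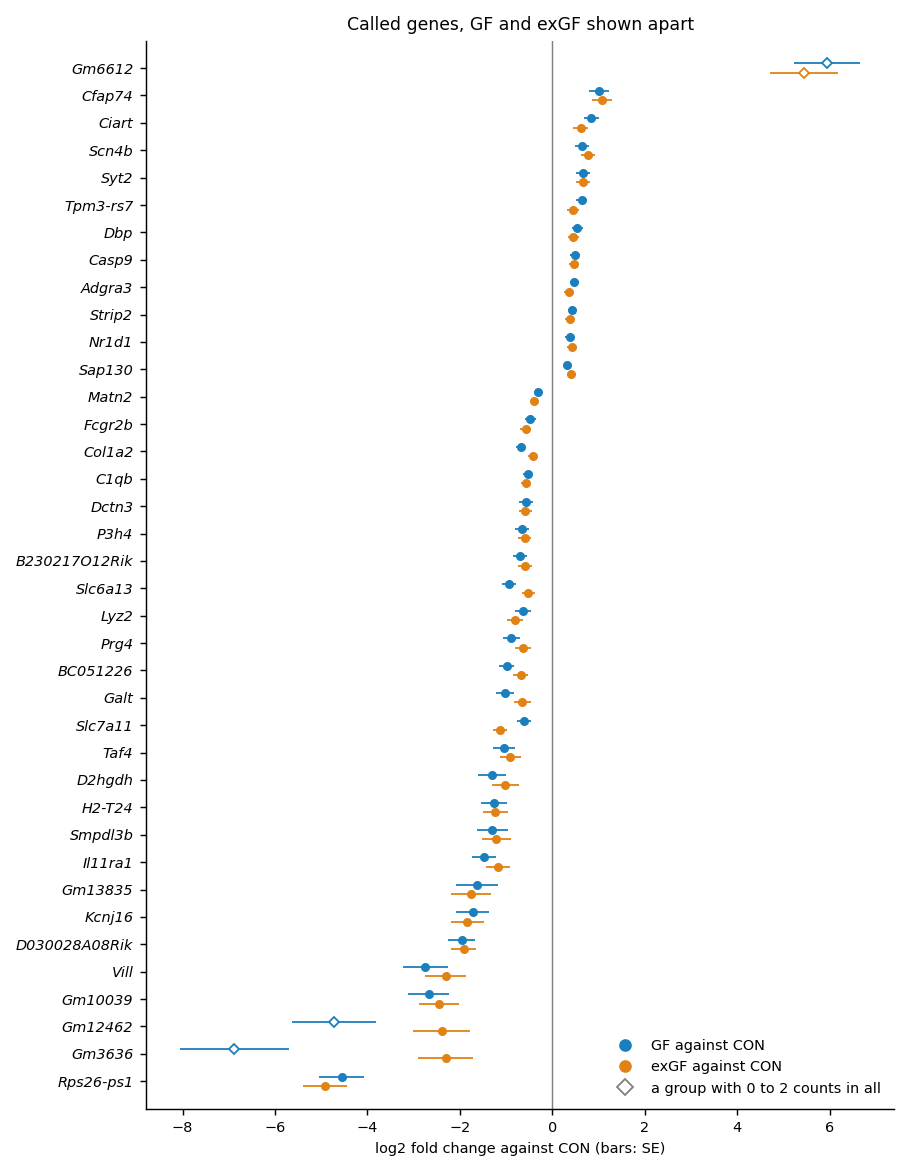
Log2 fold change against CON (horizontal axis, bars are SE) of the called genes that are reported, with GF in blue and exGF in orange, from a fit with a mean for each group. Each gene lies on the same side of 0 in GF and exGF, which share the CON libraries, and open diamonds mark a gene with 0 to 2 counts in all in 1 of the groups compared.

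Of the genes of complement component C1q, C1qb alone was called. C1qb (ENSMUSG00000036905, chr4:136880129-136886187 on GRCm38), which encodes a chain of the complement protein that tags synapses and debris, had 37.6, 41.3, 37.5 and 34.8 CPM in the CON libraries, 26.1, 25.2, 28.6 and 24.6 CPM in GF and 25.4, 20.2, 27.1 and 28.4 CPM in exGF. Every GF and exGF library lay below every CON library. That was a log2 fold change of -0.56 (SE 0.09, adjusted p = 0.0189 by edgeR (quasi-likelihood test, Benjamini-Hochberg adjustment)), -0.53 in GF and -0.58 in exGF. C1qb was called in all 12 fits that left out 1 library. Its neighbours in the same protein, C1qa and C1qc, had log2 fold changes of -0.33 and -0.31 and were not called (adjusted p = 0.339 and 0.432, the edgeR quasi-likelihood test after Benjamini-Hochberg adjustment).

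Fcgr2b (ENSMUSG00000026656, chr1:170958617-170976547), the inhibitory receptor for immunoglobulin G, had 9.19, 8.23, 9.52 and 8.42 CPM in the CON libraries, 6.55, 6.27, 5.80 and 6.88 CPM in GF and 6.26, 6.44, 5.97 and 5.14 CPM in exGF. Lyz2 (ENSMUSG00000069516, chr10:117277331-117282321), a lysozyme of macrophages, had 11.7, 13.0, 12.2 and 10.4 CPM in the CON libraries, 7.36, 7.52, 7.63 and 7.82 CPM in GF and 6.88, 4.15, 7.14 and 8.75 CPM in exGF. In both genes the groups did not overlap between CON and the others, while GF and exGF overlapped. Their log2 fold changes were -0.52 (SE 0.10) and -0.72 (SE 0.14), with adjusted p = 0.0668 and 0.0714 by the edgeR quasi-likelihood test after Benjamini-Hochberg adjustment. Fcgr2b was called in 5 and Lyz2 in 4 of the 12 fits that left out 1 library, and over all settings the Benjamini-Hochberg adjusted p of edgeR, limma or DESeq2 ran from 0.00111 to 0.226 (without CON replicate 3) and from 0.000887 to 0.233 (without CON replicate 2). Since 32.8% of the 31-base words of Lyz2 also occur elsewhere, mainly in Lyz1, its count is less certain. H2-T24 (ENSMUSG00000053835, chr17:36005695-36020560), a nonclassical MHC class I gene, was at 4.44 ± 1.51 (CON), 1.88 ± 0.680 (GF) and 1.88 ± 0.281 (exGF) CPM, a log2 fold change of -1.24 (SE 0.22). Its adjusted p was 0.0461 with the quasi-likelihood test of edgeR and Benjamini-Hochberg adjustment, with all 8 libraries below CON. Of the 13 tested genes listed for MHC class I and antigen processing, which did not include it, 0 were called (median -0.08).

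Of the 15 microglial markers, 14 had lower estimates and 1 (C1qb) was called (6.67% of the list). Over all tested genes, 0.243% were called and 52.3% had higher estimates. The median log2 fold change of the microglial list was -0.22, -0.17 in GF and -0.26 in exGF. The summed level of the list was 607, 667, 577 and 561 CPM in the CON libraries, 528, 574, 529.8 and 515 in GF and 505, 463, 511 and 522 in exGF. GF2 lay above CON4 in this sum, and the other 7 lay below all 4 CON libraries. Its most abundant gene was Csf1r, the receptor for the growth factor that keeps microglia alive, with a log2 fold change of -0.23 and an adjusted p of 0.284 by edgeR (quasi-likelihood test, Benjamini-Hochberg adjustment). No marker was at 0. Before adjustment, 7 of these 15 markers passed p under 0.05 in the edgeR test. Estimates ran from -0.56 (C1qb) to 0.05. Aif1 and P2ry12, which mark microglia in the resting cortex, had 0.05 and 0.00. Both were picked after their values were seen and lie at the upper end of this range, so they do not stand for the list. In bulk tissue fewer cells of a type and less RNA per cell cannot be told apart. The part that the number of microglia had in the lower C1qb was not tested.

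**Figure D2:**
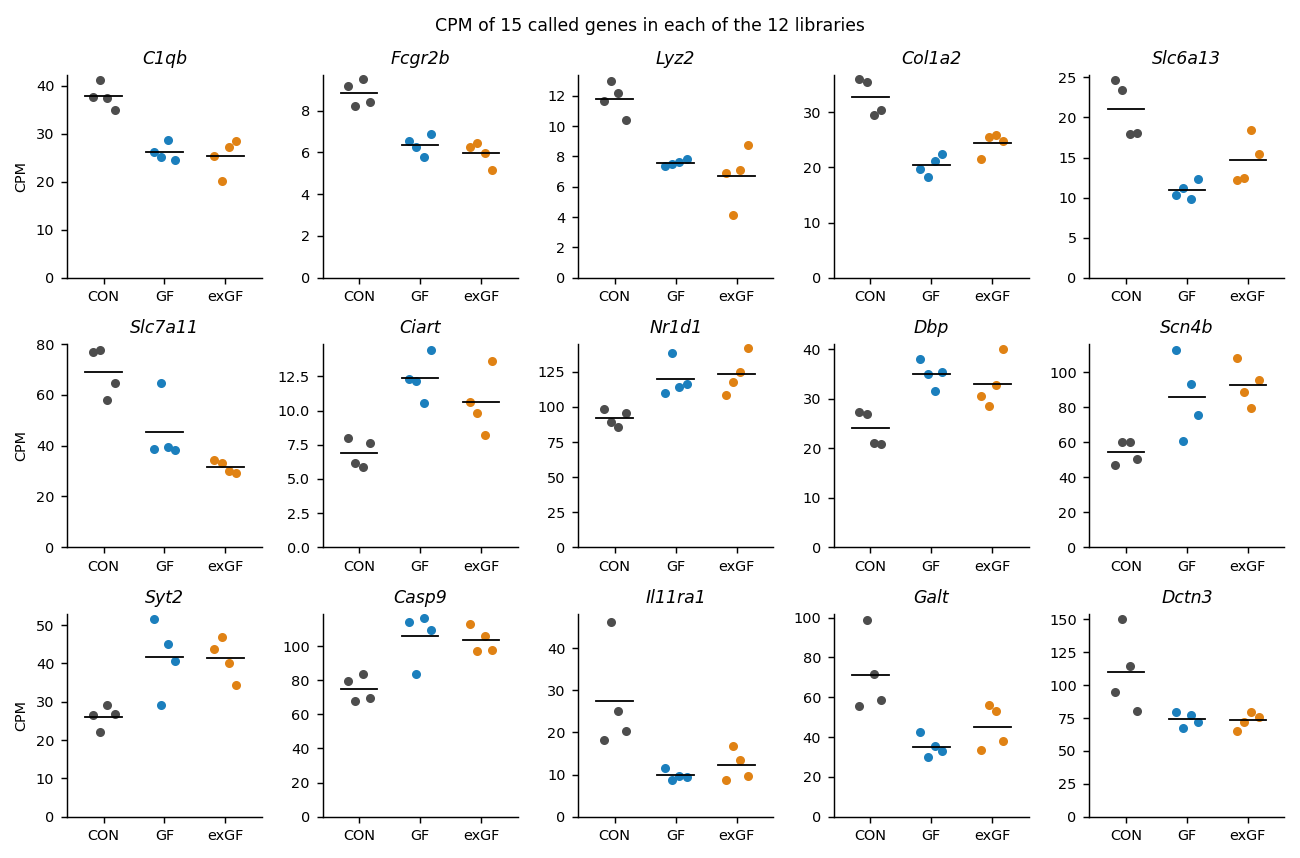
CPM (vertical axis, starting at 0) of 15 called genes in each of the 12 libraries, by group; points are libraries of pooled animals and lines are group means. C1qb sat at 34.8 to 41.3 CPM in CON and at 20.2 to 28.6 CPM in the other 8 libraries.

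Among the meningeal markers, Col1a2 and Slc6a13 were called lower. Col1a2 (ENSMUSG00000029661, chr6:4504814-4541544), a chain of type I collagen made by meningeal and perivascular fibroblasts, had 36.0, 35.5, 29.5 and 30.4 CPM in the CON libraries, 19.8, 18.2, 21.2 and 22.4 CPM in GF and 21.5, 25.6, 25.9 and 24.7 CPM in exGF. The 8 libraries lay below all CON libraries. This came to a log2 fold change of -0.55 (SE 0.10, adjusted p = 0.0483 by the edgeR quasi-likelihood test after Benjamini-Hochberg adjustment). Over the alternative settings the Benjamini-Hochberg adjusted p of edgeR, limma or DESeq2 ran from 0.000391 to 0.178, highest without CON replicate 1, and Col1a2 was called in 7 of the 12 fits that left out 1 library. Slc6a13 (ENSMUSG00000030108, chr6:121300227-121337733), a transporter of GABA and taurine in leptomeningeal cells, had 24.6, 23.5, 17.9 and 18.0 CPM in the CON libraries, 10.3, 11.2, 9.83 and 12.3 CPM in GF and 12.1, 12.5, 18.5 and 15.5 CPM in exGF. GFR3 was within the CON range and the other 7 were below it. On the log2 scale it changed by -0.71 (SE 0.15, adjusted p = 0.0839 with the quasi-likelihood test of edgeR and Benjamini-Hochberg adjustment), and it was called in 3 of the 12 fits that left out 1 library.

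All 12 meningeal markers were tested and all had lower estimates, with a median log2 fold change of -0.41, -0.43 in GF and -0.45 in exGF. Of these 12 markers, 2 were called and 10 had an unadjusted p under 0.05. Among all 16032 tested genes, 39 were called (0.243%) and 1125 had an unadjusted p under 0.05. With the same edgeR test, 2 of the meningeal markers were called in GF against CON and 0 in exGF against CON. In this list the smallest p after Col1a2 and Slc6a13 belonged to Slc22a6, an organic anion transporter (log2 -0.41, SE 0.11). Summed over the list, the level was 360.3, 302, 280.0 and 246 CPM in the CON libraries, 197, 227, 230.2 and 238 in GF and 211, 205, 258 and 222 in exGF. CON4 fell within the range of the 8, and GFR3 was the highest of these. The most abundant marker was the growth factor Igf2 (94.2 ± 15.5 (CON), 68.2 ± 10.7 (GF) and 72.9 ± 11.3 (exGF) CPM), and none was at 0. How much meningeal tissue each dissection kept was not measured, and its part in the lower Col1a2 and Slc6a13 was not tested.

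Prg4, Matn2 and P3h4, named after their values were seen, were called lower too. Prg4, the lubricating proteoglycan of joint and tendon surfaces, was at 5.05 ± 0.498 (CON), 2.74 ± 0.572 (GF) and 3.23 ± 0.453 (exGF) CPM (log2 -0.75, SE 0.15). Matn2, a matrilin of filamentous matrix, was at 41.1 ± 2.64 (CON), 33.0 ± 3.15 (GF) and 31.1 ± 1.19 (exGF) CPM (log2 -0.36, SE 0.08), and P3h4, a member of a collagen-modifying complex, at 13.6 ± 1.29 (CON), 8.60 ± 1.33 (GF) and 8.95 ± 1.71 (exGF) CPM (log2 -0.63, SE 0.12). In each of these genes the 8 libraries lay below every CON library. Their adjusted p was 0.0714, 0.0832 and 0.0714 by the edgeR quasi-likelihood test after Benjamini-Hochberg adjustment. Of the 12 fits that left out 1 library, Prg4 was called in 3, Matn2 in 2 and P3h4 in 4, and over all settings the Benjamini-Hochberg adjusted p of edgeR, limma or DESeq2 reached 0.226 (without CON replicate 1), 0.340 (without CON replicate 2) and 0.228 (without CON replicate 2).

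Of the clock list, Ciart, Nr1d1 and Dbp were called higher. Ciart (ENSMUSG00000038550, chr3:95878503-95882251), which encodes a repressor of the CLOCK and BMAL1 activator pair, had 8.0, 6.14, 5.83 and 7.66 CPM in the CON libraries, 12.3, 12.1, 10.6 and 14.4 CPM in GF and 10.7, 9.85, 8.20 and 13.7 CPM in exGF. Nr1d1 (ENSMUSG00000020889, chr11:98767932-98775333), the nuclear receptor REV-ERB alpha that represses Arntl, had 98.3, 89.4, 85.5 and 95.8 CPM in the CON libraries, 109.7, 139, 114 and 116 CPM in GF and 108, 118, 125 and 142 CPM in exGF. Dbp (ENSMUSG00000059824, chr7:45705088-45710203), a transcription factor that carries the rhythm to output genes, had 27.4, 26.8, 21.1 and 20.9 CPM in the CON libraries, 37.9, 35.1, 31.5 and 35.5 CPM in GF and 30.5, 28.6, 32.7 and 40.1 CPM in exGF. In all 3 genes each GF and exGF library was above every CON library, by a narrow margin in Ciart and Dbp. The log2 fold changes were 0.73 (SE 0.15), 0.40 (SE 0.08) and 0.50 (SE 0.11), with adjusted p = 0.0763, 0.0845 and 0.0855 by edgeR (quasi-likelihood test, Benjamini-Hochberg adjustment). These calls were lost easily: of the 12 fits that left out 1 library, Ciart was called in 3, Nr1d1 in 0 and Dbp in 1. Over all alternative settings the Benjamini-Hochberg adjusted p of edgeR, limma or DESeq2 ran from 0.00120 to 0.275 for Ciart (without CON replicate 2), 0.00283 to 0.308 for Nr1d1 (without CON replicate 3) and 0.00319 to 0.312 for Dbp (without CON replicate 3).

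Of the 17 clock genes tested, 13 had higher estimates and these 3 were called (17.6%). Over all tested genes, 52.3% had higher estimates and 0.243% were called. The clock list had a median log2 fold change of 0.23, 0.28 in GF and 0.23 in exGF. In GF against CON 1 was called and in exGF against CON 0 by the same edgeR test. Per1, a light- and activity-responsive clock gene, had 0.52 and was not called (adjusted p = 0.142 by the edgeR quasi-likelihood test after Benjamini-Hochberg adjustment). Arntl, which encodes BMAL1 and peaks opposite to Dbp, had -0.13, and Clock -0.06. The time of day at which each group was killed is not given in the sources used here, so its part in these values was not tested. Exons of Nr1d1 and Dbp overlap those of Thra and Sphk2 on the other strand, over 8.55% and 18.0% of their length. As pairs were counted without regard to strand, a pair lying wholly within these overlaps was ambiguous and was counted for neither gene. Thra and Sphk2 themselves had -0.20 and -0.13, in the other direction.

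CLOCK and BMAL1 bind the E-box CACGTG, and promoters of the called genes and of the clock list were searched for it after the clock genes were seen to be higher. The letters read the same on both strands, so 1 search covers both. In the 300-base RefSeq promoter windows (GRCm38.p6), which reach from before to just after the start of transcription, 7.15% of 32851 windows hold CACGTG, and 29 hold 3 or more (0.0883%). The window of Ciart holds 3, and those of Nr1d1 and Dbp hold 0, which says only that these letters are not in those windows. Of 27 called genes with a window in the table, 3 hold the letters, Ciart, Galt and Smpdl3b, in any of their windows. Counted the same way, 11.2% of the 11978 tested genes with a window hold them. In the clock list Bhlhe41 and Cry1 hold 1, Per1 holds 1 in 1 of its 2 windows, and Tef holds 1 in each of 2. A match is a description of sequence, and binding was not measured. The Ciart window (chr3:95882179-95882478, minus strand) is shown with each CACGTG in capitals.
Ciart: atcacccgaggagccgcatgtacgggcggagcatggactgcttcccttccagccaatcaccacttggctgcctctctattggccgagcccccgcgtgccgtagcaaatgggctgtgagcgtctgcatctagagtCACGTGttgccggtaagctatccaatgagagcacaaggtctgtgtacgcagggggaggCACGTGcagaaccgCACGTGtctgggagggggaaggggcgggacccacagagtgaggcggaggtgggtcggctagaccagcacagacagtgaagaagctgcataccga

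Among the genes called higher were Scn4b and Syt2. Scn4b (ENSMUSG00000046480, chr9:45138395-45154152), a beta subunit of voltage-gated sodium channels that supports rapid firing, had 47.1, 60.4, 60.3 and 50.7 CPM in the CON libraries, 113, 60.8, 93.4 and 75.6 CPM in GF and 108, 88.7, 79.8 and 95.4 CPM in exGF. GF2 was only just above the highest CON libraries. The log2 fold change was 0.71 (SE 0.14), 0.65 in GF and 0.77 in exGF, with an adjusted p of 0.0668 with the quasi-likelihood test of edgeR and Benjamini-Hochberg adjustment, and it was called in 5 of the 12 fits that left out 1 library. Of the 7 sodium channel subunits tested it was the 1 called (14.3%, beside 0.243% of all tested genes), and the median of the list was 0.14. The alpha subunit Scn1a of fast-spiking interneurons had 0.38 and the beta subunit Scn3b -0.18, neither called.

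Syt2 (ENSMUSG00000026452, chr1:134646677-134762593), the calcium sensor of fast transmitter release, had 26.5, 22.01, 29.2 and 26.9 CPM in the CON libraries, 51.5, 29.3, 45.1 and 40.6 CPM in GF and 43.8, 47.0, 40.1 and 34.5 CPM in exGF. Here too GF2 was the lowest of the 8 and lay close to CON3. That was a log2 fold change of 0.66 (SE 0.13, adjusted p = 0.0668 by edgeR (quasi-likelihood test, Benjamini-Hochberg adjustment)). Syt2 was called in 5 of the 12 fits that left out 1 library. Of the 10 markers of GABAergic interneurons, 0 were called and the median was 0.02, with Pvalb, the calcium buffer of fast-spiking cells, at 0.26. Kcnj16 (ENSMUSG00000051497, chr11:110968033-111027968), an inward-rectifier potassium channel subunit, had 12.5, 5.03, 13.5 and 28.0 CPM in the CON libraries, 3.05, 6.36, 3.71 and 4.52 CPM in GF and 4.31, 4.32, 4.17 and 3.78 CPM in exGF. CON2 lay within the range of the 8 libraries and the other CON libraries were far above it. This came to a log2 fold change of -1.78 (SE 0.28, adjusted p = 0.0189 by the edgeR quasi-likelihood test after Benjamini-Hochberg adjustment), and Kcnj16 was called in all 12 fits that left out 1 library.

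Slc7a11 (ENSMUSG00000027737, chr3:49892526-50443614) encodes the light chain of the antiporter that imports cystine for glutathione and releases glutamate. It had 76.7, 77.6, 57.9 and 64.6 CPM in the CON libraries, 38.5, 64.6, 39.6 and 38.4 CPM in GF and 34.5, 33.1, 30.1 and 29.1 CPM in exGF. The exGF libraries were all below the GF libraries, and GF2 alone reached the CON range. The log2 fold change was -0.85 (SE 0.16, adjusted p = 0.0668 with the quasi-likelihood test of edgeR and Benjamini-Hochberg adjustment), -0.61 in GF and -1.13 in exGF. It was called in 6 of the 12 fits that left out 1 library.

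Casp9, the initiator caspase of the mitochondrial path to apoptosis, was at 75.0 ± 7.69 (CON), 106 ± 15.2 (GF) and 103 ± 7.45 (exGF) CPM (log2 0.48, SE 0.09), and GF2 was just below the highest CON library. Sap130, a subunit of the Sin3 histone deacetylase complex, was at 61.3 ± 4.25 (CON), 76.4 ± 4.68 (GF) and 80.7 ± 3.47 (exGF) CPM (log2 0.36, SE 0.07). Cfap74, a protein of motile cilia and flagella, was at 7.22 ± 1.64 (CON), 14.7 ± 4.89 (GF) and 15.3 ± 2.42 (exGF) CPM (log2 1.05, SE 0.19). All 8 libraries exceeded CON in Sap130 and Cfap74, and the same held for Strip2, a member of striatin kinase and phosphatase complexes (log2 0.40), and the adhesion receptor Adgra3 (log2 0.41). In Vill, a villin-like protein that binds actin, CON stood at 2.45 ± 1.07 CPM against 0.363 ± 0.185 for GF and 0.499 ± 0.307 for exGF (log2 -2.49, SE 0.37). Taf4, a subunit of the general transcription factor TFIID, was at 30.2 ± 13.6 (CON), 14.6 ± 1.96 (GF) and 16.0 ± 1.90 (exGF) CPM (log2 -0.98, SE 0.19), with much spread among the CON libraries. Smpdl3b, a membrane phosphodiesterase related to sphingomyelinase, fell by 1.25 on the log2 scale, and D2hgdh, a mitochondrial dehydrogenase, by 1.15, with adjusted p = 0.0832 and 0.0992 by the edgeR quasi-likelihood test after Benjamini-Hochberg adjustment. In D2hgdh GF1 lay above CON1 and CON2, and the call was also lost with at least 10 counts in every library and with a robust fit. The Taf4 call was also lost with limma-voom. Most of these calls depended on single libraries: of the 12 fits that left out 1, Vill was called in 12, Cfap74 in 7, Sap130 in 6, Casp9 in 5, Taf4 in 5, Strip2, Smpdl3b and D2hgdh in 2 each and Adgra3 in 1.

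Of the 39 called genes, 31 are protein coding and 4 are pseudogenes, and the strongest calls were among the latter and among noncoding transcripts. Rps26-ps1 (ENSMUSG00000059775, chr8:107439131-107439579), a transcribed pseudogene of a ribosomal protein, had 5.37, 18.3, 9.28 and 4.76 CPM in the CON libraries, 0.0744, 0.582, 0.161 and 0.661 CPM in GF and 0.290, 0.389, 0.318 and 0.238 CPM in exGF. Every CON library was far above each of the other 8. That was a log2 fold change of -4.75 (SE 0.37, adjusted p = 5.36e-06 by edgeR (quasi-likelihood test, Benjamini-Hochberg adjustment)). Gm10039 (ENSMUSG00000091478, chr11:100361716-100362126), a processed pseudogene of a subunit of mitochondrial ATP synthase, had 21.7, 45.2, 33.1 and 20.99 CPM in the CON libraries, 2.38, 1.79, 8.76 and 5.89 CPM in GF and 8.16, 5.31, 6.96 and 1.74 CPM in exGF (log2 -2.55, SE 0.34). Both were called in all 12 fits that left out 1 library.

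These copies are nearly identical to active genes, so their counts rest on few distinguishing bases. A pair that fits both places equally well is not counted, and 91.9% of the 31-base words of Rps26-ps1 and 92.9% of those of Gm10039 occur in other genes. Over the 345 coding bases of Rps26 the pseudogene differs at 2, and over the 408 of Atp5g1 Gm10039 differs at 1. To show how alike they are, a 60-base stretch of each pair is printed from the GRCm38 transcripts, with the differing base in capitals. Both pseudogenes are on the minus strand, Rps26-ps1 at chr8:107439278-107439337 and Gm10039 at chr11:100361730-100361789. The stretches are exonic, and correspond to coding bases 226 to 285 of Rps26 (chr10:128624534-128626747, minus strand) and 338 to 397 of Atp5g1 (chr11:96068852-96075670, minus strand).
Rps26-ps1: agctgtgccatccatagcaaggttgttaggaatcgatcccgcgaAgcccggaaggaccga
Rps26: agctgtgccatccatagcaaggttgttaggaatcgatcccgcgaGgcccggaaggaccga
Gm10039: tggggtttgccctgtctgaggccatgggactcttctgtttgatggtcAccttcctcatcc
Atp5g1: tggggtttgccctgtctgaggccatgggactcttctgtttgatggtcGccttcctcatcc

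The active genes were looked at after the values of their copies were seen. Rps26 was at 111 ± 20.6 (CON), 124 ± 9.78 (GF) and 97.0 ± 18.6 (exGF) CPM (log2 -0.01, SE 0.14), and Atp5g1 at 119 ± 15.8 (CON), 144 ± 21.5 (GF) and 136 ± 25.0 (exGF) CPM (log2 0.23, SE 0.12). Neither was called. Gm10039 was lower and the estimate for Atp5g1 higher. Tpm3-rs7, a retrotransposed copy with 78.6% of its words elsewhere and most in the tropomyosin gene Tpm3, was higher, at 47.0 ± 8.85 (CON), 73.2 ± 2.64 (GF) and 64.2 ± 7.55 (exGF) CPM (log2 0.55, SE 0.11). Tpm3, which was not called, moved the other way, at 119 ± 16.1 (CON), 89.7 ± 4.27 (GF) and 92.5 ± 12.03 (exGF) CPM (log2 -0.38, SE 0.09). Whether reads passed between these copies and their parents was not tested. Gm13835, all of whose words occur elsewhere, most in the proteasome gene Psma3, had -1.71 (SE 0.35), and Psma3 -0.02. Tpm3-rs7 and Gm13835 had adjusted p = 0.0809 and 0.0832 with the quasi-likelihood test of edgeR and Benjamini-Hochberg adjustment, and each was called in 2 of the 12 fits that left out 1 library. Among the 39 called genes, 6 have most of their words in other genes.

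Some transcripts were at or near 0 on one side. Gm6612 (ENSMUSG00000058357, chr15:80952505-80952899), a processed pseudogene, had 1 count over the 4 CON libraries, in CON1, and 11 to 24 counts in each of the 8 others, 134 in all. The ratio of the 8 to CON was 78.1, with a 95% counting interval of 13.8 to 3105, and intervals and floors of this kind cover counting error only. Gm3636, a gene model with 93.5% of its words in other genes, had 0 counts in GF and 64 in CON, at least 14.97-fold lower in GF with 3 counts over the group as the floor, and 0, 0.0432, 0.212 and 0.204 CPM in the exGF libraries. The antisense transcript Gm12462 had 2 counts in GF and 89 in CON, so CON exceeded GF by 31.2 times (counting interval 8.40 to 262). In the exGF libraries Gm12462 had 1, 0, 12 and 4 counts, and GFR3, at 0.424 CPM, lay above CON4, at 0.419 CPM. D030028A08Rik (ENSMUSG00000078700, chr11:96916270-96965060), a noncoding transcript, had 5.58, 6.40, 9.69 and 7.43 CPM in the CON libraries, 1.64, 1.12, 2.20 and 2.53 CPM in GF and 2.28, 2.42, 2.12 and 0.954 CPM in exGF (log2 -1.94, SE 0.22). A gene on the other strand overlaps 18.9% of the exon length of D030028A08Rik, and pairs lying wholly within shared exons were counted for neither gene. BC051226, a noncoding RNA that starts from a shared promoter, had -0.82 (SE 0.14). Of the 12 fits that left out 1 library, Gm6612 and D030028A08Rik were called in all, BC051226 in 9, and Gm3636 and Gm12462 in 3 each. Gm12462 was tested in 11 of these fits.

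Called genes lay on 16 chromosomes, 8 of them on chromosome 4 and 6 on chromosome 11. Another called gene within 1 Mb was found for 7 of the 39 (17.9%) and for 6.55% of the tested genes with a known position. The densest group was Il11ra1, Dctn3 and Galt, the last 2 of which lie inside the annotated span of the first. Il11ra1 (ENSMUSG00000073889, chr4:41699989-41769474), a receptor chain for an interleukin of the gp130 family, had 18.3, 46.3, 25.0 and 20.3 CPM in the CON libraries, 11.6, 8.82, 9.56 and 9.47 CPM in GF and 8.74, 16.8, 13.5 and 9.64 CPM in exGF. Galt (ENSMUSG00000036073, chr4:41755228-41758695), an enzyme of galactose breakdown, had 55.8, 98.5, 71.5 and 58.6 CPM in the CON libraries, 42.4, 29.8, 35.4 and 33.0 CPM in GF and 33.5, 56.2, 53.0 and 37.9 CPM in exGF, and Dctn3 (ENSMUSG00000028447, chr4:41714798-41723170), a subunit of the dynein activator dynactin, had 95.1, 150.0, 115 and 80.2 CPM in the CON libraries, 79.4, 67.6, 77.4 and 71.9 CPM in GF and 65.1, 72.1, 79.6 and 75.9 CPM in exGF. CON2 was the highest library in all 3 genes, Il11ra1 and Dctn3 did not overlap between CON and the others, and Galt overlapped by GFR2 alone. Their log2 fold changes were -1.31 (SE 0.22), -0.82 (SE 0.17) and -0.58 (SE 0.12). By the edgeR quasi-likelihood test after Benjamini-Hochberg adjustment the adjusted p was 0.0229, 0.0809 and 0.0809, and without CON replicate 2 it was 0.380 for Galt and 0.289 for Dctn3 (range over all settings 0.00235 to 0.380 and 0.00339 to 0.289). Il11ra1 was called in all 12 fits that left out 1 library, Galt in 3 and Dctn3 in 2. The Galt call was also lost with a robust fit and the Dctn3 call with limma-voom.

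The genes between and beside them were looked at after these values were seen. Rpp25l and Ccl27a had log2 fold changes of -0.76 (SE 0.17) and -0.63 (SE 0.14), each with an adjusted p of 0.133 with the quasi-likelihood test of edgeR and Benjamini-Hochberg adjustment, and were not called. Rpp25l is related to an RNase P subunit, and Ccl27a is a chemokine. Of the 24 tested genes in the stretch around them (chr4:41199989-42269474), 15 had lower estimates, 8 had an unadjusted p under 0.05 and the median was -0.08. Cntfr, just before Il11ra1, had -0.01, and Gm13301 and Gm13306, farther along, had 0.76 and 0.42. A gene on the other strand overlaps 26.7% of the exon length of Galt, and 30.3% of the words of Galt occur in other genes. Other genes hold 57.7% of the words of Il11ra1, Gm13305 the most of them, so the share of each in these counts is uncertain. The number of copies of this stretch in each colony was not measured.

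**Figure D3:**
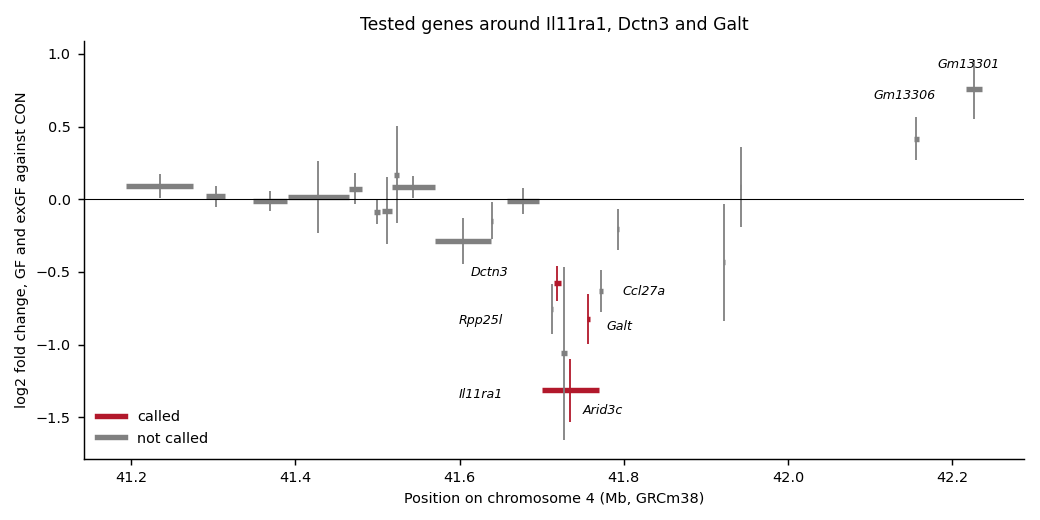
Log2 fold change of the 8 libraries against CON (vertical axis, thin lines are SE) of the tested genes that are reported, by position on chromosome 4 (GRCm38, thick lines span the gene), with called genes in red. All values from Il11ra1 to Ccl27a are below 0, and Cntfr just before them is at -0.01.

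GF and exGF were then compared with CON apart, in a fit with a mean for each group that shares the CON libraries between both. By edgeR (quasi-likelihood test, Benjamini-Hochberg adjustment), GF had 39 called genes (17 higher and 22 lower, 0.243%) and exGF had 15 (4 higher and 11 lower, 0.0936%). In each of the 39 genes called over the 8 libraries together, GF and exGF each differed from CON at an unadjusted p under 0.05, as that call favours genes that differ from CON in both. After adjustment with the same edgeR test fewer did so, and 19 of these 39 were called in GF against CON and 9 in exGF against CON, so the 39 called in GF are not the same 39 genes.

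Shifts that followed colonization from weaning were read from exGF against GF. In this contrast colonization cannot be told apart from the move out of the isolator that came with it. The called genes were not chosen by this contrast, yet with one coefficient for the 8 libraries a difference between GF and exGF counts as spread and works against a call, so few such differences among them are partly a result of the choice. Over all genes 2 were called by the edgeR quasi-likelihood test after Benjamini-Hochberg adjustment (0.0125%), the tubulin gene Tuba1c and the pseudogene Gm14150, and 1066 had an unadjusted p under 0.05 (6.65%). Tuba1c and Gm14150 were both lower in exGF than in GF, which put exGF farther from CON. Of the 39 shared genes 0 were called and 4 had an unadjusted p under 0.05: Slc7a11, Gm3636, Slc6a13 and Col1a2. In 25 of the 39 (64.1%) exGF was nearer to CON than GF was, and the same held for 55.2% of all tested genes. The median change toward CON was 0.06 on the log2 scale, small beside the shifts themselves.

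The intervals show what a return toward CON could still amount to. Col1a2 was higher in exGF than in GF by log2 0.26 (95% interval 0.04 to 0.48) and Slc6a13 by 0.43 (0.11 to 0.75), both in the direction of CON, with adjusted p = 0.726 for each with the quasi-likelihood test of edgeR and Benjamini-Hochberg adjustment. For Slc7a11 the estimate went the other way, -0.52 (-0.84 to -0.20), away from CON, with the same adjusted p by that edgeR test after Benjamini-Hochberg adjustment, and GF2, at 64.6 CPM beside 38.4 to 39.6 CPM, raised its GF mean. Gm3636, at 0 in all 4 GF libraries, had 1 to 6 counts in 3 exGF libraries, with 4.57 (1.24 to 7.90) beside a GF shift of -6.88. Gm12462 had 2.32 (-0.12 to 4.77) beside -4.72, so both intervals reach the size of the GF shift. Against CON itself, exGF still had log2 fold changes of -2.31 (SE 0.59) for Gm3636 and -2.40 (SE 0.61) for Gm12462. Fitted values of genes with so few counts set no bound. For C1qb the difference was -0.04 (-0.27 to 0.18), for Nr1d1 0.04 (-0.17 to 0.25), for Scn4b 0.12 (-0.20 to 0.44) and for Casp9 -0.03 (-0.26 to 0.19). In none of these last 4 was a move toward CON as large as the GF shift inside the interval, and the same held for Rps26-ps1, with -0.36 (-1.82 to 1.10) beside a GF shift of -4.56. For Galt the interval (-0.03 to 0.76) reached most of the GF shift of -1.02. A p that misses the threshold does not show that GF and exGF were alike.

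Gene lists with large shifts in GF did not all share this pattern. Mature oligodendrocyte and myelin genes, which build the insulating sheath of axons, had higher estimates in 18 of 18, with a median log2 fold change of 0.45 over the 8 libraries, 0.69 in GF and 0.15 in exGF, and 0 were called over the 8 by edgeR (quasi-likelihood test, Benjamini-Hochberg adjustment), although 13 had an unadjusted p under 0.05. In GF against CON 6 were called and in exGF against CON 0 by the same edgeR test. The summed level of the list was 2839.9, 2857, 2328.2 and 2472 CPM in the CON libraries and 4340.5, 3626, 6010.5 and 4524.5 in GF. In exGF it was 3377.6, 2504.1, 2311 and 3865.8 CPM, so these pools were split. GFR1 and GFR4 lay above every CON library, and GFR4 also above GF2. GFR2 lay within the CON range and GFR3 just below it. Mobp, a myelin structural protein, was at 320.4 ± 44.5 (CON), 637 ± 159 (GF) and 389.6 ± 112 (exGF) CPM, and exGF against GF gave -0.71 (-1.11 to -0.31). Of the 18, 12 differed between exGF and GF at an unadjusted p under 0.05 and 0 after adjustment by the same edgeR test. Myrf, the transcription factor that switches on myelin genes, was the one member whose 8 libraries lay all above CON (log2 0.42, SE 0.12, adjusted p = 0.327 by the edgeR quasi-likelihood test after Benjamini-Hochberg adjustment). Over the alternative settings the Benjamini-Hochberg adjusted p of edgeR, limma or DESeq2 ran from 0.132 to 0.740 for Myrf.

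Activity-induced genes, transcribed within minutes to hours of neuronal firing, had higher estimates in 25 of 25, with a median of 0.34, 0.49 in GF and 0.25 in exGF. None (0) was called with the quasi-likelihood test of edgeR and Benjamini-Hochberg adjustment, whereas 15 reached an unadjusted p under 0.05. In GF against CON 2 were called, Dusp6 and Tnfaip6, and in exGF against CON 0, by the same edgeR test. Over the 8 libraries the smallest p belonged to Dusp6, a phosphatase that switches off ERK (0.46, adjusted p = 0.128), Per1 (0.52, 0.142) and Tnfaip6, a hyaluronan-binding protein (1.14, 0.145), all by edgeR (quasi-likelihood test, Benjamini-Hochberg adjustment). Dusp6 was at 79.1, 61.6, 68.1 and 75.8 CPM in the CON libraries, 101, 109.9, 104 and 115 CPM in GF and 101, 83.4, 77.8 and 92.3 CPM in exGF. The exGF libraries lay between the other groups on average, and exGF against GF gave -0.28 (-0.49 to -0.07).

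**Figure D4:**
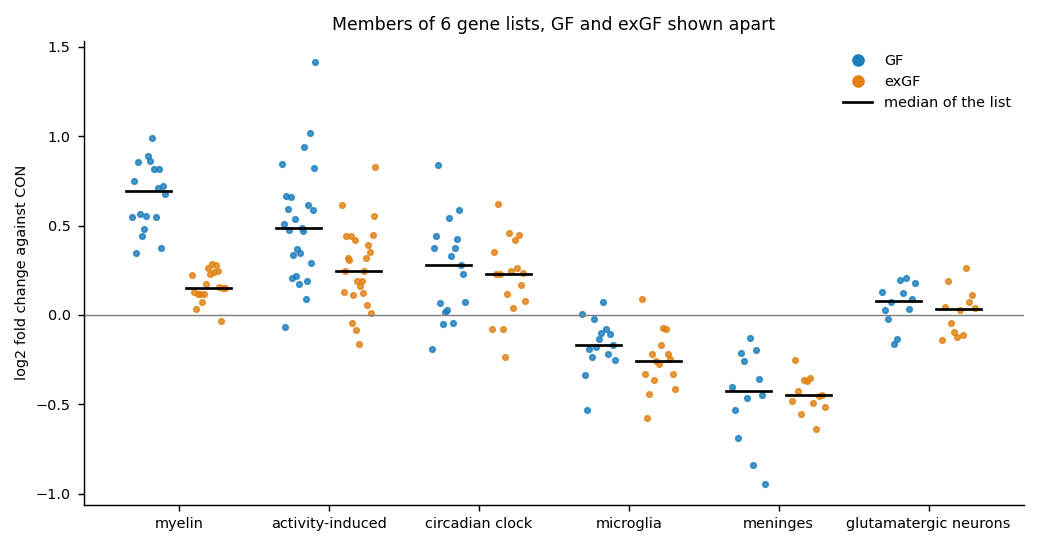
Log2 fold change against CON (vertical axis) of each tested member of 6 gene lists, GF in blue and exGF in orange, with black lines at the list medians. The myelin list has medians of 0.69 in GF and 0.15 in exGF, and the meninges list -0.43 and -0.45.

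Interferon-induced genes had 10 higher and 18 lower estimates of 28, a median of -0.19 over the 8 libraries and 0 called by the edgeR quasi-likelihood test after Benjamini-Hochberg adjustment (4 at an unadjusted p under 0.05). The median was -0.35 in GF, with 3 genes called by the same edgeR test, and -0.01 in exGF, with 0 called. Between exGF and GF 0 were called and 7 had an unadjusted p under 0.05, and exGF was below GF in 6 of 28. Ifit2, an antiviral RNA-binding protein, was at 7.26 ± 0.148 (CON), 13.6 ± 6.52 (GF) and 17.7 ± 4.77 (exGF) CPM (log2 1.11, SE 0.26), and its relative Ifit1 at 3.39 ± 0.519 (CON), 1.69 ± 0.440 (GF) and 2.48 ± 0.172 (exGF) CPM (log2 -0.67, SE 0.19). Neither was called over the 8 libraries, and Ifit1 is 1 of the 3 called in GF. For the other 2, Ifit3 and Ifit1bl1, relatives of Ifit1, exGF against GF gave 3.16 (1.84 to 4.48) and 4.89 (2.66 to 7.11), toward CON, with adjusted p = 0.433 and 0.572 by the edgeR quasi-likelihood test after Benjamini-Hochberg adjustment. GFR1 stood apart in both: Ifit3 was at 0.497 CPM there, at 2.29 to 4.43 in the other exGF libraries and at 0.179 to 0.446 in GF. Ifit1bl1 was at 0 in GFR1 and at 1.63 to 2.21 CPM in the other exGF libraries. Ifit1bl1 had so few counts in GF that its fitted values set no bound. Receptors and adaptors that sense microbial patterns, the Toll-like receptors among them, had 8 higher and 8 lower estimates of 16 tested, a median of 0.00 and 0 at an unadjusted p under 0.05, with Tlr2 at -0.31 and Cd14 at -0.25. Glucocorticoid-responsive genes had a median of 0.06 and 0 of 14 called, although Sgk1, a kinase induced by corticosterone, had 0.27. Astrocytes (0 of 9 called, median 0.03), endothelium (0 of 10, 0.04), oligodendrocyte precursors (0 of 9, -0.04), tubulins (0 of 14, 0.03), cytosolic ribosomal proteins (0 of 14, -0.07) and mitochondrially encoded genes (0 of 9, 0.03) had medians near that of all genes. All 14 ribosomal protein genes had lower estimates, with exGF below GF in 13 (medians 0.01 in GF and -0.15 in exGF), and exGF lay below GF in 9 of 9 mitochondrial genes (0.13 in GF and -0.07 in exGF).

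The number of shared genes depended on single pools. Left out in turn, the libraries gave 9 genes without CON1, 15 without CON2, 19 without CON3, 47 without CON4, 13 without GF1, 18 without GF2, 9 without GF3, 18 without GF4, 8 without GFR1, 33 without GFR2, 39 without GFR3 and 35 without GFR4. The 8 genes called in every one of these fits were C1qb, Vill, Kcnj16, Il11ra1, Rps26-ps1, D030028A08Rik, Gm6612 and Gm10039.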

How the data were processed

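The samples were 12 libraries of medial PFC, 4 each of CON, GF and exGF mice, grouped by their labels. The authors trimmed paired reads (Trimmomatic 0.32), aligned them to GRCm38 with STAR, counted pairs per Ensembl gene with HTSeq-count 0.6.0 without regard to strand although the kit was stranded, and deposited raw counts for 41388 genes; 40254 had a name in the GENCODE annotation used here. STAR's version differs between the sources (the processing notes give 2.3.1u). Closing rows for pairs given to no gene were left out of all tests: 4.57% to 7.32% outside genes, 1.10% to 1.32% ambiguous and 12.9% to 19.2% aligned to several places.

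Counts were analysed in R 4.3.3 with edgeR 4.0.16 (filterByExpr, TMM, glmQLFit and glmQLFTest), limma 3.58.1 and DESeq2 1.42.0 as alternatives. The 8 libraries entered as 1 group; a second fit gave CON, GF and exGF a mean each. Genes were called at a Benjamini-Hochberg adjusted p under 0.1, the threshold of the study's methods. Pairs of libraries within a group gave a mean chi-square per gene of 8.73 to 37.3 (1 under sampling error alone). Separate pools were bound to exceed sampling error, so no conclusion was drawn from these values. Groups with at most 3 counts in each of their libraries were treated as at the floor. The scripts were tested on simulated counts.

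Genes named were, among those called, the 12 with the smallest p in each direction whose 8 libraries lay on 1 side of CON, the 5 with the largest change among the other called genes, called list members, the 3 smallest p of each list, and the 5 called genes with the smallest p of exGF against GF. Genes outside this rule (Rps26, Atp5g1, Tpm3, Psma3, C1qc, Aif1, P2ry12, Arntl, Clock, Igf2, Thra, Sphk2, Rpp25l, Ccl27a, Cntfr, Gm13301, Gm13306, Gm14150, Camk2a, Ifit3, Ifit1bl1, and the called genes Prg4, Matn2, P3h4, Smpdl3b, Galt and Dctn3) were chosen after their values were seen. A few genes are not reported here. Groups and lists were chosen with earlier results of these data known. Alternatives were other normalizations, filters, tools, a stricter threshold, a covariate, each library left out and the replicate number as a block.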

Additional observations from a re-analysis of the deposited data

Results flagged for a closer look

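Among the called genes, 117 groups of 4 libraries were checked for a library far from the others, and 3 stood out (2.56%). The rule is set to flag about 1 in 20 groups by chance. Called genes were chosen by a test that spread within groups works against, so no conclusion was drawn from these rates. In GF the Slc7a11 level of GF2 was 64.6 CPM, and the other GF libraries had 38.4 to 39.6. In GF the D2hgdh level of GF1 was 5.21 CPM, where the others had 1.88 to 1.98. In CON the Gm6612 level of CON1 was 0.0410 CPM, which is 1 count, and the others had 0.

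The effects of GF and exGF against CON differed for Gm14150 and Tuba1c, by log2 -4.92 and -4.48 (exGF minus GF), the 2 genes called between these groups by edgeR (quasi-likelihood test, Benjamini-Hochberg adjustment; adjusted p = 0.0635 and 0.0806). GF4 had 12 counts of Tuba1c and the other GF libraries 278 to 388, and the exGF libraries had 7 to 29. Neither gene is tested when at least 10 counts are required in every library.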

How the results depend on the processing

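Most counts of called genes moved with the tool, the filter and single libraries, and the cause was not tested. For the 39 genes of the 8 libraries against CON, DESeq2 gave 136 and no filter on low counts 70, in both with all 39 among them, and a threshold of 0.05 gave 12. RLE and upper-quartile normalization, at least 10 counts in every library, limma-voom, robust quasi-likelihood, the mean of 2 group means and the multiply aligned share as a covariate gave 32 to 49. Leaving out each library gave 8 to 47. The count of called genes without overlap (29) was 65 with DESeq2, 11 at 0.05 and 7 to 39 with each library left out. For GF against CON (39) the counts were 151 without a filter, 22 with at least 10 counts, 175 with DESeq2, 25 with robust quasi-likelihood, 12 at 0.05 and 7 (without GF replicate 3) to 59 (without GFR4). For exGF against CON (15) they were 43, 2, 50, 7 and 7 in the same order, and 6 to 18 with each library left out. For exGF against GF (2) they were 18, 0, 17, 0 and 0, also 0 with limma-voom and with the 2 groups alone, and 0 to 3 with each library left out. Without GFR1 the 3 called genes were all higher in exGF. Neither these nor the 2 called without GFR4 include the genes of the main fit, both of which were lower. With the replicate number as a block, CON and GF alone gave 51 genes; same-numbered libraries correlated by -0.05 to 0.03, so the numbers do not pair the samples. Among the genes reported, a direction was reversed in uncalled ones alone. With each library left out, log2 fold changes ran from -0.124 (without CON replicate 2) to 0.0042 (without CON replicate 4) for Vcan, -0.18 (without GF replicate 1) to 1.05 (without CON replicate 1) for Ttr, which also had -0.15 with limma-voom, -0.19 (without CON replicate 4) to 0.0141 (without GF replicate 3) for Kcnj13, and, highest without CON replicate 2, -0.50 to 0.28 for Rgs9 and -0.28 to 0.30 for Tac1.

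Depth limits genes with few counts, such as Gm6612, Gm12462 and Gm3636. Colony, isolator and early microbes cannot be told apart, nor can colonization and the move out of the isolator. Each library is a pool, and genes with copies or overlapping exons are uncertain. More pools would be needed to fix the number of shared genes, since only 8 of the 39 calls held whichever library was left out.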
